A study of Mus musculus with 6 samples.

Results

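The matrix metalloproteinases (MMP), the ADAM and ADAMTS proteases and their tissue inhibitors (TIMP) were examined in livers of nude mice. Genes were taken by name: a gene belonged if its name on the array was Mmp, Timp, Adam or Adamts followed by a digit. This gave 79 of the 37074 gene names on the array, read by 153 probes: 23 MMP, 33 ADAM, 19 ADAMTS and 4 TIMP genes.

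MMPs are zinc-dependent proteases, secreted or held at the cell surface, that are made as inactive zymogens and cut matrix proteins, growth factors and other proteases. ADAMs are membrane proteins, and the catalytically active ones release the outer parts of other membrane proteins, whereas several lack a working protease domain and act in adhesion or in sperm. ADAMTS proteases are secreted and cut proteoglycans, procollagens or von Willebrand factor, and TIMPs bind MMPs and some ADAM and ADAMTS proteases in their active sites. In liver the matrix-directed members are made largely by stellate cells, fibroblasts and leukocytes.

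The sEV group had 3 livers from nude mice given small extracellular vesicles (sEVs) of SW620 cells, a human colorectal cancer line, at 20 µg per tail vein injection. The Control group had 3 livers from nude mice given sterile PBS. Both groups received 10 injections over 21 days and held 5 mice, of which 3 were arrayed. The mice are athymic and lack mature T cells, and no age is given for them in the sources used.

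RNA of each liver was hybridised to 1 one-colour Agilent array, and the number of arrays limits the precision. Between 49.9% and 54.7% of the spots outside the controls were well above background. Values are log2 of the processed signal relative to the array's 75th percentile, so 0 is that percentile of the array's probes, and they compare livers for 1 probe, not genes with each other. Of 6 hepatocyte markers listed, Tf was not on the array under that name, and the other 5 were well above background on all 6 arrays. Row 1 of the slide held the 3 Control arrays together with that of sEV 1, and row 2 held those of sEV 2 and sEV 3. RNA came from whole liver, so fewer cells of a type and less RNA per cell cannot be told apart.

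Many of these genes gave little signal. At least 1 probe was well above background on 3 or more of the 6 arrays for 39 of the 79 genes, and only these were tested. Of the other 40, 32 were not well above background on any array and 8 were so on 1 or 2 arrays. The undetected MMPs were 11 genes, among them Mmp9 (gelatinase B), the stromelysins Mmp3 and Mmp10, the macrophage elastase Mmp12 and the collagenase genes Mmp1a and Mmp1b. Of the aggrecan-cutting ADAMTS genes, Adamts4 and Adamts8 were undetected, and a probe for Adamts5 was well above background on 0 sEV and 2 Control arrays. Many of the undetected ADAMs are testis genes in the mouse, such as Adam2, Adam3 and Adam18. The values of all 40 give no measured change in either direction.

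**Figure D1:**
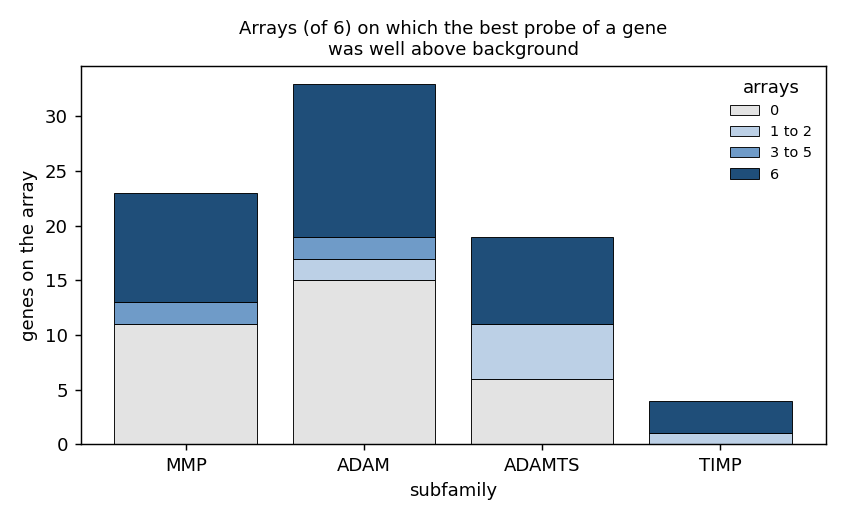
Number of genes (y axis) in each subfamily (x axis), split by the number of arrays, of 6, on which the gene's best probe was well above background. The dark segments, genes above background on all 6 arrays, hold 10 MMP, 14 ADAM, 8 ADAMTS and 3 TIMP genes.

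Among the 39 measured genes, 12 differed between sEV and Control livers at an adjusted p under 0.05 (limma, Benjamini-Hochberg over the 19447 genes tested), against 17.0% of all genes tested. Mmp7, Mmp27, Adam11, Adam33 and Adamts15 were higher in sEV livers, and Mmp2, Mmp11, Adam1a, Adam32, Adamts1, Adamts2 and Adamts9 were lower. Over all genes tested, 9.08% were higher and 7.95% lower. Mmp27 passed the filter on dim probes only through the sEV arrays, where it was high, and without it 11 members were called, 4 of them higher. The members' median log2 change was -0.09, beside 0.03 over all genes tested. The 3 livers of each group did not overlap for 18 of the 39 genes, against 40.9% of all genes tested. The 12 called genes were among these 18. With 3 livers against 3, an exact permutation test of 1 gene cannot give a p below 0.1, and the p-values measure the spread between these livers. Scaling each array to its median made 36.8% of the calls over all genes higher ones, against 53.3% here, and left 3 members higher.

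**Figure D2:**
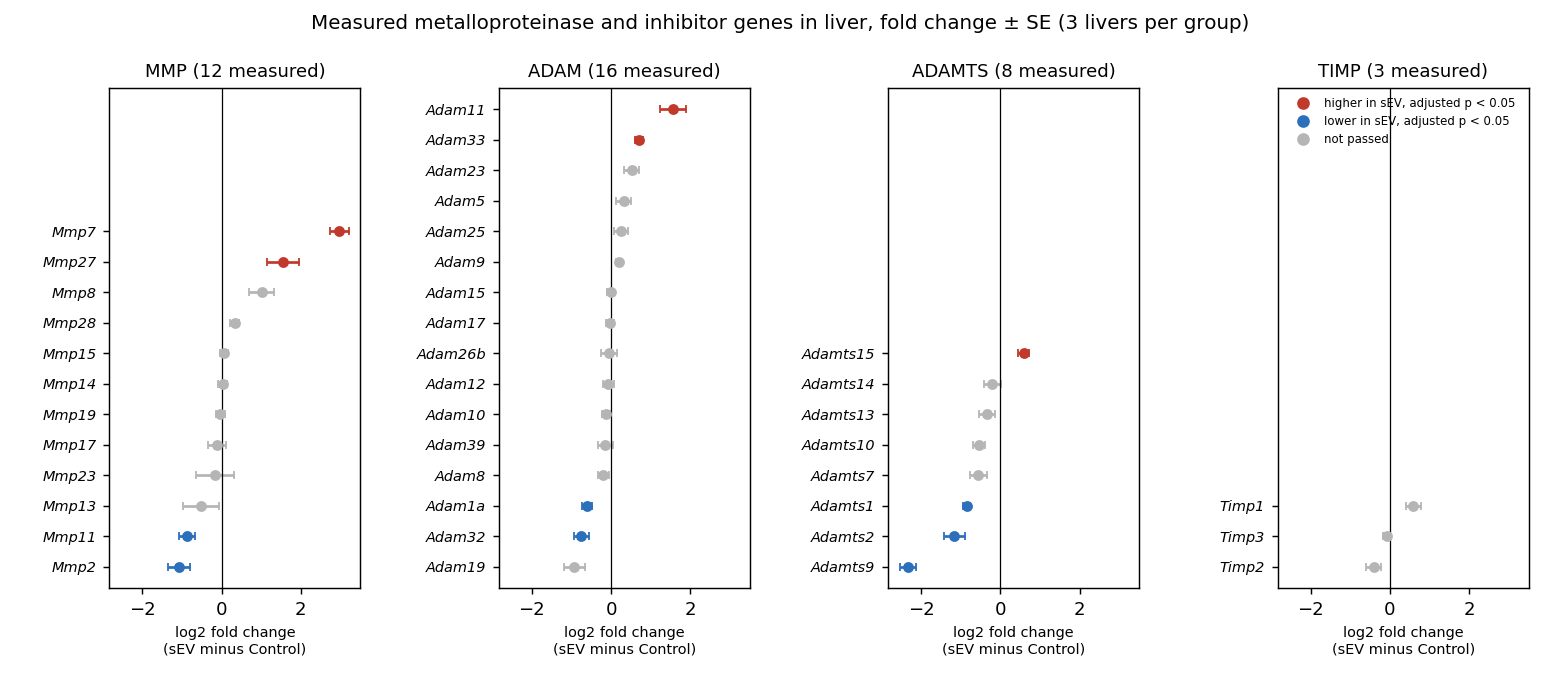
Log2 fold change (x axis, sEV minus Control, bar: SE, 3 livers per group) of each of the 39 measured genes, by subfamily. Mmp7 at 2.98 and Adamts9 at -2.35 lie at the ends. The Mmp27 point is a fitted value, because no Control array detected its probe.

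By subfamily, 2 of the 12 measured MMP genes, Mmp27 included, rose and 2 fell, with a median log2 change of -0.00. Of 16 measured ADAM genes 2 rose and 2 fell, with a median of -0.04. Of 8 measured ADAMTS genes 1 rose and 3 fell, with a median of -0.55, and Adamts15 was the only one above 0. None of the 3 measured TIMP genes passed (0 by limma at the adjusted threshold, 1 at an unadjusted p under 0.05). Whether the subfamilies differ from each other was not tested.

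Mmp7 encodes matrilysin, a small MMP without a hemopexin domain that is made by epithelial cells, including those of injured bile ducts, and cuts E-cadherin, defensin precursors and matrix proteins. Its log2 signal was 1.01, 0.77 and 0.24 in sEV livers 1 to 3, against -2.62, -2.33 and -1.97 in Control livers 1 to 3. Every sEV liver lay far above every Control liver. The difference was 2.98 ± 0.24 (log2, SE, 7.87-fold, adjusted p = 0.00169 in limma). Under normexp background correction, which compresses dim signals, the difference was 2.07. The probe lies at chr9:7699476-7699535 on the plus strand of mm9, the build of the array's annotation. Whether a probe lies in a coding exon or a UTR was not looked up, as no mm9 gene models were used here.

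A second Mmp7 probe at chr9:7697641-7697700 read -0.04, -0.30 and -0.78 in sEV livers and -4.10, -4.01 and -3.30 in Control livers. It was well above background on 3 of 3 sEV arrays and 1 of 3 Control arrays. The fitted difference was 3.43 ± 0.27 (adjusted p = 0.00162 in the limma fit over all probes), so both probes read the same direction. With only 1 of 3 Control arrays well above background, 3.43 is not a measured size. The sequence of this second probe is shown because it is the stretch of the transcript whose signal separated the groups. It is given on the plus strand of mm9, with no part set in capitals.
Mmp7 probe: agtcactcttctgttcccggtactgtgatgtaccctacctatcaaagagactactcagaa

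Cholangiocyte markers were set beside Mmp7 because bile duct cells make it. The summed level of the 7 measured ones, on the linear scale relative to the 75th percentile, was 8.01 to 8.78 in sEV livers and 8.38 to 14.0 in Control livers. Spp1 made up 76.2% to 87.1% of it, and the rest summed to 1.35 to 1.90 in sEV livers and 1.56 to 1.81 in Control livers. Both sums overlapped between the groups, whereas the Mmp7 signals did not, and their part in the Mmp7 values was not tested.

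Mmp27 lies on chromosome 9 near Mmp7. Its probe, at chr9:7581328-7581387 of mm9, was well above background on 3 of 3 sEV arrays and 0 of 3 Control arrays. The log2 signals were -2.93, -3.23 and -3.09 in sEV livers and -5.54, -3.85 and -4.54 in Control livers. The level was at least 1.84-fold higher in sEV livers, where each Control array enters with its detection floor (the dimmest probe that cleared background there), or with the probe's own value where that is higher. The gene entered the test only through the sEV arrays, so its adjusted p of 0.0447 (limma) is no support for a change. The fitted log2 difference was 1.56 here and 0.47 under normexp, and neither is a measured size.

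Mmp8, the neutrophil collagenase, did not pass. Its log2 signal was -2.37, -1.43 and -1.13 in sEV livers and -2.77, -2.53 and -2.67 in Control livers, a difference of 1.01 ± 0.31 (adjusted p = 0.0718, limma). The groups did not overlap, and sEV 1 was the sEV liver nearest to the controls: without it the difference was 1.38 and the adjusted p 0.00778. That fit sets sEV arrays of slide row 2 against Control arrays of row 1, so group and row cannot be told apart in it. With slide row as a block the Mmp8 difference was 0.29. Of 8 measured mature neutrophil markers, a list that includes Mmp8, 2 rose, S100a9 by 1.11 ± 0.27 and S100a8 by 1.18 ± 0.30 (adjusted p = 0.0410 and 0.0441). The 2 below 0 were Ly6g at -0.07 ± 0.16 and Csf3r at -0.89 ± 0.75 (adjusted p = 0.779 and 0.446, limma). The summed level of the 8 overlapped between the groups, at 165 to 208 in sEV livers and 146 to 176 in Control livers. Csf3r made up 9.37% to 74.7% of it, and the rest was 91.6 to 149 in sEV livers and 36.8 to 64.0 in Control livers. The log2 signal of Csf3r was 6.86, 3.95 and 6.63 in sEV livers and 6.86, 6.49 and 6.76 in Control livers. Only sEV 2 lay below every Control liver. Of 6 granulocyte precursor genes 5 rose, and Fcnb, which was well above background on 3 sEV and 0 Control arrays, was at least 2.60-fold higher. The median was 1.83 with Fcnb at that bound. Their summed level was 30.0 to 55.4 in sEV livers and 7.41 to 13.5 in Control livers, and without Mpo, which makes up 53.0% to 70.0% of it, 10.2 to 16.6 and 3.48 to 4.54. Examples of the precursor genes, without a block, are Ctsg, cathepsin G, at 2.09 ± 0.25, and Elane, neutrophil elastase, at 1.32 ± 0.16 (adjusted p = 0.00557 and 0.00632, limma). With slide row as a block, 0 genes of either list were called. Their part in the Mmp8 values was not tested.

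Mmp13, the main interstitial collagenase of mice, had log2 signals of -2.59, -4.31 and -4.06 in sEV livers and -3.51, -2.97 and -2.92 in Control livers. The groups overlapped, with sEV 1 above and the other sEV livers below every Control liver. The difference was -0.52 ± 0.46 (adjusted p = 0.469, limma). The probe was well above background in sEV 1 alone among the sEV livers, so the other sEV values are background readings. Within slide row 1, where sEV 1 is the only sEV liver, the difference was 0.55. No direction is read for Mmp13.

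Mmp7, Mmp27, Mmp8 and Mmp13 belong to a run of 10 MMP genes whose probes span chr9:7282762-7699535 of mm9. The other 6, Mmp1a, Mmp1b, Mmp3, Mmp10, Mmp12 and Mmp20, were not well above background on any array. By probe position, Mmp27 lies between Mmp8, which was measured, and Mmp20, which was not, and Mmp20 is also the gene nearest to Mmp7. The 4 measured genes of the cluster were Mmp7 at 2.98, Mmp27 at least 1.84-fold higher, Mmp8 at 1.01 and Mmp13 at -0.52.

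Promoters of several MMP genes are known for a site of AP-1, the Fos and Jun dimer. The letters TGACTCA or its reverse complement TGAGTCA were searched in the 250 bases before each start site in RefSeq's GRCm38.p6 promoters. They occurred in 7 of the 10 cluster genes, in 9 of the 49 members with a promoter in the table, and in 5.16% of all 27025 genes in it. Adam19 and Adam29 were the 2 members outside the cluster. Of the called members with a promoter, 1 of 2 higher genes, Mmp7, and 0 of 5 lower genes held the letters. The other higher gene was Mmp27, which passed the filter only through the sEV arrays, so its call is no support for a change. The windows of the 7 cluster genes and of Adam19 are shown so that the detected genes (Mmp7, Mmp13 and Adam19) can be read beside the undetected ones, with the AP-1 letters in capitals and each read 5′ to 3′ on the gene's strand.
Mmp7: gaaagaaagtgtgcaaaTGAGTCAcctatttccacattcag
Mmp13: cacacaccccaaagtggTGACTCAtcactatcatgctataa
Mmp12: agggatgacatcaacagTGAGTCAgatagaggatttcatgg
Mmp1b: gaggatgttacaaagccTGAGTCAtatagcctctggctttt
Mmp3: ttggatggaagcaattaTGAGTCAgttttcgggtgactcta
Mmp1a: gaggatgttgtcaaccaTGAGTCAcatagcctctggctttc
Mmp10: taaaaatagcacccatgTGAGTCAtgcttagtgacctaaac
Adam19: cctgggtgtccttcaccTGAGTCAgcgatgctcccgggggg

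The Mmp7 window is chr9:7692010-7692050 of GRCm38.p6, plus strand, with the letters 63 bases before the first of 2 start sites in the table; the 250 bases before the second hold no such letters. The Mmp13 window is chr9:7272462-7272502, plus strand, with the letters 35 bases before it, and the Adam19 window is chr11:46055836-46055876, plus strand, 131 bases before it. The other windows lie at chr9:7347313-7347353 (Mmp12), chr9:7445759-7445799 (Mmp3), chr9:7464051-7464091 (Mmp1a) and chr9:7502262-7502302 (Mmp10), all plus strand, and at chr9:7388096-7388136, minus strand (Mmp1b). The same letters thus stand before Mmp7, which rose, before Mmp13 and Adam19, which did not pass, and before 5 cluster genes with no measured level. A match describes letters, not a bound site. The STAT letters TTCNNNGAA, which read the same on both strands, occurred in 3 of the 49 members (6.12%) and 8.13% of all genes. The PEA3 letters AGGAAG or CTTCCT occurred in 19 members (38.8%) and 32.3% of all genes.

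Mmp2 encodes gelatinase A, which cuts denatured collagen and basement membrane and is activated at the cell surface by Mmp14 together with Timp2. Its log2 signal was -2.55, -2.55 and -2.17 in sEV livers, against -0.80, -1.87 and -1.39 in Control livers. The groups did not overlap, although sEV 3 and Control 2 came close. The difference was -1.07 ± 0.27 (2.10-fold lower, adjusted p = 0.0443, limma). Under normexp the adjusted p was 0.0614. Mmp11, stromelysin 3, which is activated inside the cell by furin, fell by 0.87 ± 0.20 on the log2 scale (adjusted p = 0.0351, limma), with -2.48, -2.69 and -3.09 in sEV livers and -1.56, -2.11 and -1.98 in Control livers. Under normexp Mmp2 was at -0.49 and Mmp11 at -0.32, and Mmp11 was not called (adjusted p = 0.0534).

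Mmp14 itself, the membrane-type collagenase, was at 0.03 ± 0.11 (adjusted p = 0.882, limma), and none of the 3 measured membrane-type MMPs passed (0 also at an unadjusted p under 0.05). Mmp28, epilysin, was at 0.33 ± 0.11 (adjusted p = 0.0991) and Mmp23 at -0.17 ± 0.47 (adjusted p = 0.830). The remaining measured MMPs lay between -0.12 and 0.06. Apart from Mmp7, Mmp27, Mmp2 and Mmp11, no measured MMP passed in this fit.

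Adamts9 is a secreted protease that cuts versican and aggrecan and also takes part in making cilia. Its log2 signal was -2.71, -2.44 and -2.56 in sEV livers, against 0.19, -0.25 and -0.61 in Control livers. All 3 sEV livers lay within a narrow range, well below every Control liver. The difference was -2.35 ± 0.20 (5.08-fold lower, adjusted p = 0.00212, limma), and -1.38 under normexp. The probe lies at chr6:92722729-92722788 on the minus strand of mm9. A second probe that passed the filter was lower in sEV livers too, but it was well above background on only 1 of 3 sEV arrays, so its size is not given.

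Adamts1, another versican-cutting protease, which also limits angiogenesis, had -0.14, -0.14 and -0.08 in sEV livers and 0.80, 0.81 and 0.59 in Control livers. Its sEV livers were almost identical. The difference was -0.85 ± 0.09 (1.81-fold lower, adjusted p = 0.00417, limma, probe at chr16:85795044-85795103, minus strand, mm9). Adamts15, a related proteoglycanase, went the other way, with -2.10, -2.04 and -1.88 in sEV livers and -2.36, -2.56 and -2.85 in Control livers, a difference of 0.58 ± 0.14 (adjusted p = 0.0394). It was not called with median scaling (0.0516). So of the 3 measured proteoglycanases of 7 on the array, 2 fell and 1 rose.

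Adamts2 removes the amino-terminal propeptide of fibrillar procollagens. It had 1.43, 0.83 and 1.60 in sEV livers and 2.87, 2.15 and 2.33 in Control livers, with no overlap. The difference was -1.17 ± 0.26 (2.25-fold lower, adjusted p = 0.0308, limma). Adamts14, which shares that activity, was at -0.20 ± 0.22 (adjusted p = 0.559). Adamts13, which cuts von Willebrand factor and is made by stellate cells, was at -0.35 ± 0.20 (adjusted p = 0.275). Adamts7 was at -0.55 ± 0.21 (adjusted p = 0.123) and Adamts10 at -0.54 ± 0.15 (adjusted p = 0.0523), although the other 2 Adamts10 probes that passed the filter read 0.09 and 0.08.

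**Figure D3:**
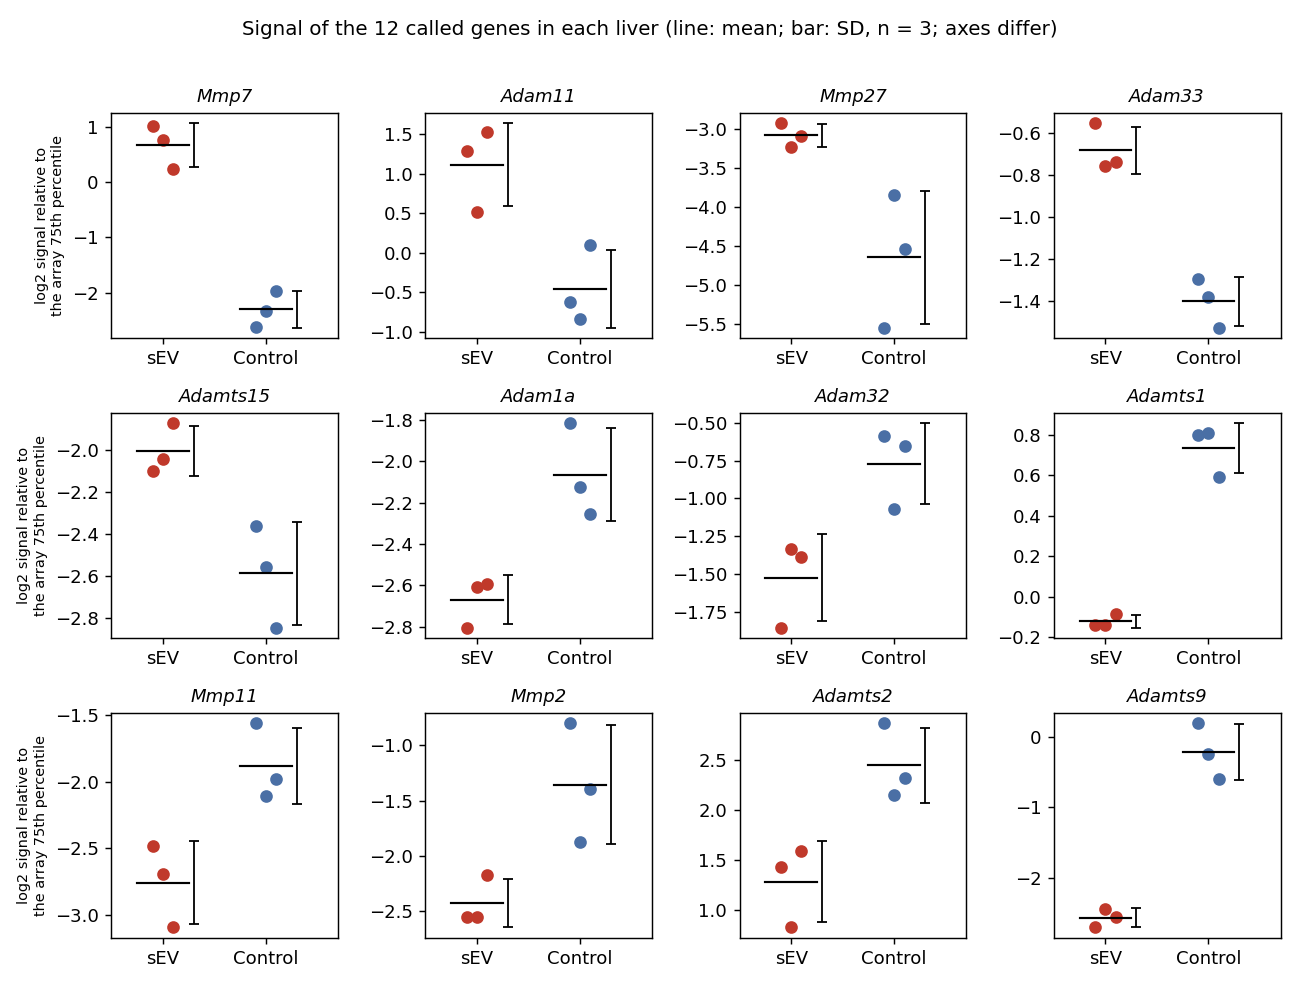
Log2 signal relative to the array's 75th percentile (y axis, scales differ) in each liver for the 12 called genes, sEV left and Control right (line: mean, bar: SD, n = 3). The groups do not overlap in any panel, and Adamts1 and Adamts9 show the narrow sEV spread given in the text.

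Some stellate cell and myofibroblast markers fell beside the lower members. Of 9 measured stellate cell markers 3 fell and 0 rose, with the strongest tests for Lrat, which stores retinol as esters, at -1.09 ± 0.17, and Ngfr at -0.73 ± 0.17 (adjusted p = 0.0120 and 0.0345, limma). Their summed level was 88.4 to 119 in sEV livers and 107.3 to 150.7 in Control livers, of which 76.0% to 83.8% was Dcn, which did not pass (-0.21 ± 0.19, adjusted p = 0.472), and 18.6 to 23.7 in sEV livers and 25.5 to 35.8 in Control livers without it. The other markers that did not pass reached 0.39. Of 8 myofibroblast markers 4 fell and 0 rose, with the strongest tests for Postn, periostin, at -1.48 ± 0.16 and Col3a1 at -1.89 ± 0.28 (adjusted p = 0.00397 and 0.0112). The 4 that did not pass were Acta2 at -0.03 ± 0.17, Tagln at 0.05 ± 0.25, Fbln2 at -0.22 ± 0.21 and Thy1 at 0.25 ± 0.22 (adjusted p = 0.463 to 0.914, limma). The summed level of the 8 was 23.6 to 35.8 in sEV livers and 42.5 to 72.1 in Control livers. All 9 and all 8 were well above background on all 6 arrays. Blocking on slide row left 0 of the 9 and 1 of the 8 called. Their part in the lower Mmp2, Mmp11, Adamts1, Adamts2 and Adamts9 was not tested.

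Adam33, a catalytically active ADAM of mesenchymal cells, had -0.55, -0.75 and -0.74 in sEV livers, against -1.29, -1.38 and -1.53 in Control livers. The groups were well apart. The difference was 0.72 ± 0.10 (1.65-fold, adjusted p = 0.00935, limma), and the 3 probes that passed the filter read 0.66 to 0.80. The probe with the highest mean lies at chr2:130876845-130876904 on the minus strand of mm9.

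Adam11 lacks the zinc-binding site of the protease and is known from neurons. It had 1.29, 0.52 and 1.52 in sEV livers and -0.62, -0.84 and 0.09 in Control livers, a difference of 1.56 ± 0.33 (2.96-fold, adjusted p = 0.0274, limma). A second probe, above background on all 6 arrays, read only 0.29 ± 0.10 (adjusted p = 0.107 in the fit over all probes), so the size of the change differs between probes. Adam23, also without a working protease, was at 0.53 ± 0.19 (adjusted p = 0.107).

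Adam32 and Adam1a are known from testis and sperm. Adam32 had -1.85, -1.33 and -1.39 in sEV livers and -0.59, -1.07 and -0.65 in Control livers, a difference of -0.75 ± 0.19 (adjusted p = 0.0438, limma). Adam1a had -2.80, -2.61 and -2.59 in sEV livers and -1.82, -2.12 and -2.26 in Control livers, a difference of -0.60 ± 0.14 (adjusted p = 0.0311). Adam1a has a near copy, Adam1b, whose probes were not well above background on any array. Under normexp Adam1a was at -0.21 and not called (adjusted p = 0.116), and Adam32 was at -0.46. Adam32 was not called without any 1 of the 6 livers (adjusted p = 0.0505 to 0.131).

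The best known sheddases did not pass. Adam10, which releases Notch and many other ectodomains, was at -0.14 ± 0.10 (adjusted p = 0.383, limma), and Adam17, which releases tumour necrosis factor and the interleukin 6 receptor, at -0.03 ± 0.09 (adjusted p = 0.850). Of the 8 measured genes in that class only Adam33 passed. Adam8, known from myeloid cells, was at -0.19 ± 0.13 (adjusted p = 0.364), Adam5 at 0.32 ± 0.19 (adjusted p = 0.285) and Adam19 at -0.93 ± 0.26 (adjusted p = 0.0562). Adam19 was called with median scaling, quantile normalization, the deposited value table, an intensity trend and the filter on all 6 arrays. It was not called with normexp (-0.30), array weights, the mean over probes or the replicate block. The 6 measured ADAM genes not named here lay between -0.14 and 0.24.

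The inhibitors gave no call. Timp1, which leukocytes and stellate cells make in injured liver, had 1.18, 1.84 and 1.65 in sEV livers and 0.85, 1.15 and 0.89 in Control livers. The groups did not overlap, by a gap between sEV 1 and Control 2 that was small. The difference was 0.59 ± 0.19 (adjusted p = 0.0779, limma), and without sEV 1 it was 0.78 (adjusted p = 0.0250). Timp2 had 3.01, 2.65 and 3.21 in sEV livers and 3.61, 3.37 and 3.12 in Control livers, a difference of -0.41 ± 0.18 (adjusted p = 0.177). A second Timp2 probe that passed the filter read -0.10 ± 0.13. Timp3, which binds to the matrix and also inhibits ADAM17, had 1.79, 1.96 and 1.86 in sEV livers and 1.997, 1.988 and 1.889 in Control livers, a difference of -0.09 ± 0.09 (adjusted p = 0.521). A second Timp3 probe, above background on all 6 arrays, had groups that did not overlap. It read 0.23 ± 0.09 (adjusted p = 0.149 in the limma fit over all probes), so the 2 probes differ in direction. Timp4 was not measured.

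Slide row could be set apart only in part. With it as a block the contrast rests on sEV 1 against the 3 Control livers, and 3.67% of all genes were called, 1.29% higher and 2.38% lower. Of the 12 members, 4 were still called: Mmp7 at 3.31 (adjusted p = 0.0116), Adamts9 at -2.48 (0.0222), Adamts1 at -0.87 (0.0401) and Adam33 at 0.85 (0.0403), all limma values. Adam19 was called with the block, at -1.48 (adjusted p = 0.0335). Within row 1 alone, where 1 sEV liver meets 3 Control livers and the spread comes from the Control livers only, 3.05% of all genes were called, among them Mmp7, Adamts9 and Adam19. The other 8 of the 12 did not pass with the block, but their differences kept their direction. They were 1.74 for Adam11, 1.71 for Mmp27, -1.20 for Mmp2, -1.08 for Adam32 and -0.74 for Adam1a, larger than without it, and -1.02 for Adamts2, -0.60 for Mmp11 and 0.49 for Adamts15, smaller than without it. Mmp8 and Timp1, both lowest in sEV 1 among sEV livers, were at 0.29 and 0.22 with the block.

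**Figure D4:**
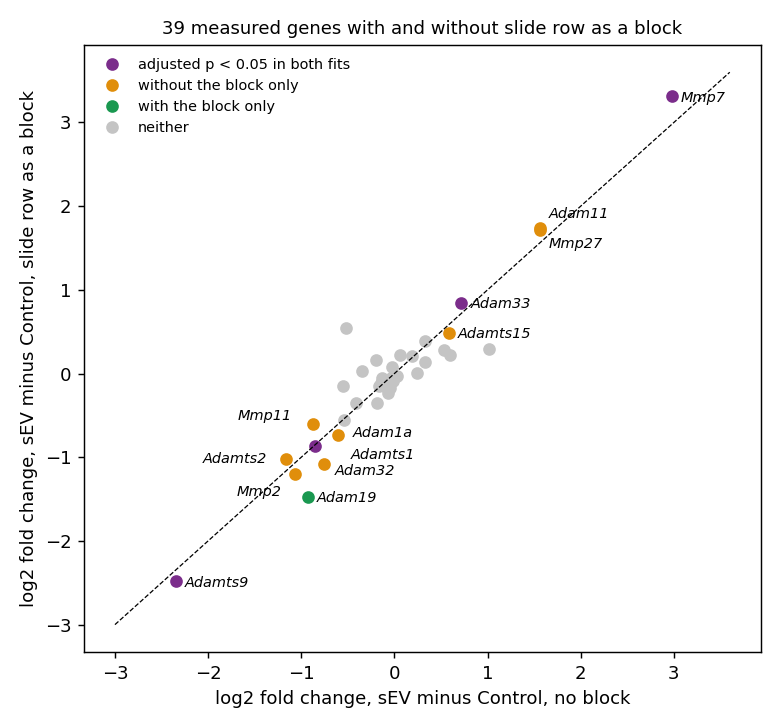
Log2 fold change (sEV minus Control) of the 39 measured genes without the block (x axis) and with slide row as a block (y axis), with equality dashed. Mmp7, Adam33, Adamts1 and Adamts9 passed in both fits, and Adam19 with the block alone.

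The same 4 genes were called without each of the 6 livers in turn. Leaving out a liver lowered the calls over all genes to 14.2% without sEV 1, 8.24% without sEV 2, 7.76% without sEV 3, 6.94% without Control 1, 7.36% without Control 2 and 8.65% without Control 3. Without sEV 1, the sEV arrays left are all in slide row 2 and the Control arrays in row 1. Of the other 8 called members, Adam32 was called in 0 of these 6 fits and the rest in 1 or 2. Other processing gave 22.0% of all genes called with normexp, 13.9% with median scaling, 18.0% with quantile normalization, 18.0% with the deposited value table, 15.6% with the mean over probes, 19.8% with an intensity trend, 20.1% with array weights and 11.4% with the replicate block. The filter on dim probes gave 19.2% when all 6 arrays were required, 11.5% when 1 was and 2.18% with none. Of the 12 members, 9 were called under normexp, 10 with median scaling, 11 each with quantile normalization, the deposited table, the trend, array weights and the filter on all 6 arrays, and 12 with the mean over probes. The number was 7 with the replicate block, 6 when 1 array was enough, and 3 without a filter (Mmp7, Adamts1 and Adamts9).

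Genes that act with these proteases were read from 9 lists. Activators and regulators changed upward where they changed. Of 7 measured plasminogen system genes 3 rose and 0 fell (median 0.18): Cpb2, which slows fibrin breakdown, at 0.81 ± 0.11, Plaur, the urokinase receptor, at 0.61 ± 0.12, and Plg, plasminogen, at 0.42 ± 0.11 (adjusted p = 0.00890, 0.0210 and 0.0450, limma). Of 6 zymogen convertases 1 rose, Pcsk5 at 0.50 ± 0.11 (adjusted p = 0.0286), and of 9 other inhibitors and partners 2 rose, Fetub, an inhibitor of astacin proteases, at 0.46 ± 0.10, and Lrp1, which clears proteases and TIMPs from the cell surface, at 0.56 ± 0.14 (adjusted p = 0.0251 and 0.0422).

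Of 8 ADAM10 and ADAM17 partners 1 rose: Rhbdf2, which escorts ADAM17 to the cell surface, had 1.01, 0.80 and 1.29 in sEV livers and 0.26, 0.18 and 0.39 in Control livers, a difference of 0.76 ± 0.14 (adjusted p = 0.0197, limma). Adam17 itself did not pass. Of 18 shed ligands and receptors 2 rose, Il6ra at 0.51 ± 0.13 and Cxcl16 at 0.37 ± 0.08 (adjusted p = 0.0473 and 0.0280), with a median of 0.20. Of 5 ADAMTS-like glycoproteins, which lack the protease domain, 2 rose, Thsd4 at 0.45 ± 0.08 and Adamtsl4 at 0.37 ± 0.10 (adjusted p = 0.0180 and 0.0450). None of 6 other zinc endopeptidases passed (0 by limma, 1 at an unadjusted p under 0.05), with Ece1 highest at 0.23 and Mme lowest at -0.27. With slide row as a block, 0 genes of these 7 lists were called.

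Substrates of the proteases were mostly lower. Of 7 measured ADAMTS substrates 4 fell and 1 rose, with a median of -1.07. That median is the value of Col2a1, which did not pass (adjusted p = 0.491, limma). Col2a1 was well above background on only 1 of 3 sEV arrays, so the median is not a measured size. Col3a1 at -1.89 ± 0.28, Col1a1 at -2.04 ± 0.36 and Col1a2 at -1.48 ± 0.32 fell (adjusted p = 0.0112, 0.0175 and 0.0290, limma). Vcan, versican, which Adamts1, Adamts9 and Adamts15 cut, rose by 0.38 ± 0.08 (adjusted p = 0.0227). Col3a1, Col1a1 and Col1a2 also stand in the myofibroblast list. Of 14 MMP substrates of basement membrane and stroma 7 fell and 0 rose, or 6 without Eln, with a median of -0.59. They included Sparc at -1.60 ± 0.13, the basement membrane linker Nid1 at -0.94 ± 0.10 and Col4a1 at -1.10 ± 0.18 (adjusted p = 0.00170, 0.00461 and 0.0137). Eln, elastin, was well above background on 0 sEV and 3 Control arrays, and at least 4.43-fold lower in sEV livers. It passed the filter through the Control arrays alone, so its adjusted p of 0.00704 (limma) is no support for a change. With slide row as a block 0 ADAMTS and 3 MMP substrates were called.

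**Figure D5:**
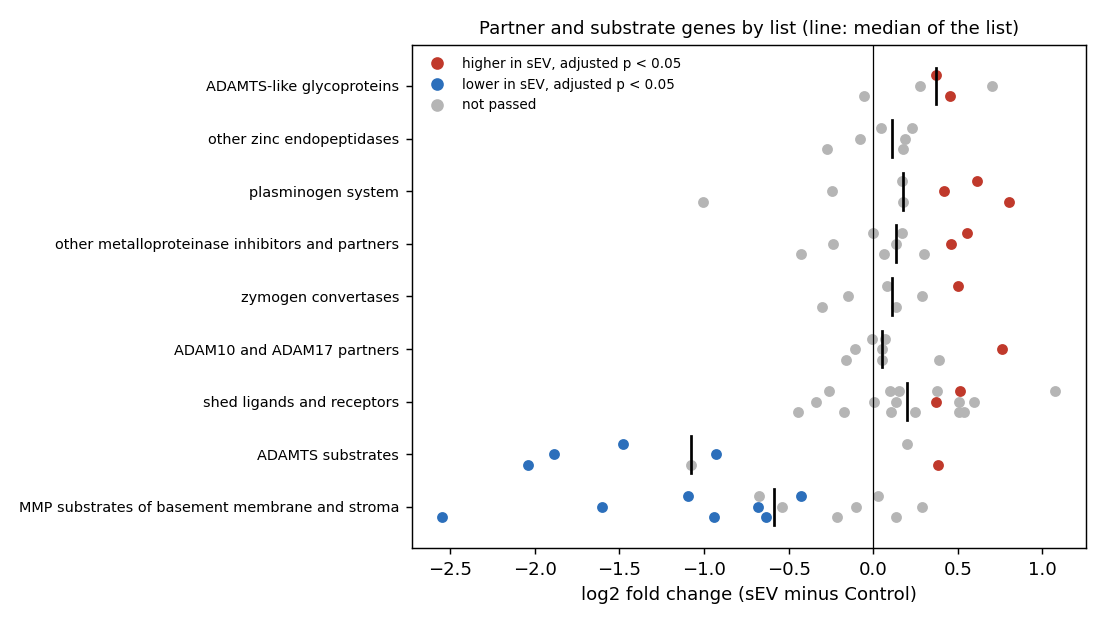
Log2 fold change (x axis, sEV minus Control) of each measured gene in the 9 lists (y axis), with a vertical line at each list's median. The substrate lists have medians of -1.07 and -0.59, and the other 7 lists lie between 0.05 and 0.37. The median of -1.07 is the point of Col2a1, which was well above background on only 1 of 3 sEV arrays.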

How the data were processed

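Liver RNA of 3 sEV and 3 Control nude mice was read on one-colour Agilent arrays. Per the file headers, signals came from Feature Extraction 10.7.1.1. The deposited scanner files hold intensity values per spot, background-subtracted within the array and not scaled between arrays, per the file headers. The deposited value table holds log2 values (median 4.50 in each column, lowest r of 0.9995 with log2 of the scanner's processed signal), made by steps that the sources used here do not give. Its scale and direction were taken from that match.

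Controls and outlier-flagged spots (91 to 171 an array) were dropped, and 0 of the remaining spots were saturated. Each log2 processed signal was set against the 75th percentile of its array. Genes needed a probe well above background on at least 3 of 6 arrays, and the brightest such probe by mean represented the gene. sEV minus Control was tested with limma 3.58.1 in R 4.3.3, using all 6 livers without covariates. P-values were adjusted by Benjamini-Hochberg across the 19447 genes, and calls were made at 0.05. The fit was tested on simulated data. Figures used matplotlib 3.10.9 under Python 3.11.15. Array gene names matched RefSeq by accession for 78 of 79 genes, with no differing symbol, and Mmp27 keeps the array's name. Probe coordinates are mm9, from the files, and promoters are RefSeq's GRCm38.p6, not mixed.

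Named genes were every called member, every TIMP, Mmp2, Mmp9, Mmp14, Adam10, Adam17 and Adamts13, the 2 highest and 2 lowest uncalled members of each subfamily, members above background on all arrays of 1 group and none of the other, members with 1 called probe and another of opposite sign, up to 4 called genes of each partner list and up to 2 of each marker list, by size of the moderated t (the highest and lowest where none was called). Undetected genes named as examples, the remaining cluster genes, Ly6g, Csf3r, Hemgn, Col2a1 and the uncalled myofibroblast markers were chosen after their values were seen. The calls within the cholangiocyte marker list are not reported here. The members and lists were chosen with earlier results of these data known. The replicate numbers do not pair the livers: deviations of same-numbered livers correlated at 0.02, 0.16 and 0.02. Alternatives covered background correction, scaling, filters, probes, variance models, the value table, replicate and slide row blocks and each liver left out.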

Additional observations from a re-analysis of the deposited data

How the results depend on the processing

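Members called higher and lower (5 and 7 with the settings used throughout) numbered 8 and 4 with normexp, 3 and 4 when 1 array above background was enough, 1 and 3 without a filter, 2 and 3 with slide row as a block, and 1 and 2 within row 1. Median scaling gave 3 higher. All genes called numbered 810 without a filter, 714 with the row block and 594 within row 1. MMP calls were 1 with the row block, within row 1, when 1 array was enough and without a filter. ADAM calls were 2 with the row block, 1 within row 1 and 0 without a filter, and ADAMTS calls 2 and 1 with the row block and within row 1. TIMP calls were 1 with normexp, an intensity trend or array weights. With the replicate number as a block, MMP calls fell to 2, and the block changed no other count of members by over 1.5 times. Leaving out 1 liver gave 1349 to 2767 calls over all genes, 2 to 4 higher and 2 to 5 lower members, 1 to 4 MMP, 1 to 3 ADAM, 2 to 3 ADAMTS and 0 to 1 TIMP calls. The cause of these shifts was not tested.

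Genes that did not pass changed sign in some settings. Adam17 was at 0.0017 with normexp, 0.00018 with the mean over probes, 0.084 with the row block and within row 1, and from -0.087 to 0.016 with 1 liver left out (0.012 without Control 2). With the row block and within row 1, Adamts13 was at 0.026, Adamts14 at 0.16, Mmp13 at 0.55 and Mmp14 at -0.035. Mmp14 was at -0.049 with median scaling and from -0.071 to 0.096 with 1 liver left out (-0.0031 without Control 2). Mmp23 ranged from -0.51 to 0.34 with 1 liver left out (0.086 without sEV 2). The mean over probes put Adam10 at 0.012 and Timp3 at 0.071. No called member changed sign in any setting run. Signal over background limits the 40 unmeasured genes, and 3 livers per group limit the rest.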

Other observations

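Markers of other liver cells were read beside the proteases. Of 8 measured Kupffer cell markers 4 rose and 0 fell, with the strongest tests for C1qa at 0.74 ± 0.13 and Vsig4 at 0.59 ± 0.11 (adjusted p = 0.0170 and 0.0199, limma). Of 7 monocyte markers 3 rose and 3 fell. Cx3cr1, the fractalkine receptor, at -2.17 ± 0.16 and Ly6c2 at -0.56 ± 0.08 had the strongest tests (adjusted p = 0.00124 and 0.00907). The 3 that rose, named here after their values were seen, were Chil3 at 2.51 ± 0.43, S100a4 at 1.08 ± 0.17 and Ccr2 at 0.52 ± 0.13 (adjusted p = 0.0155, 0.0133 and 0.0373). Of 8 sinusoidal endothelial markers 1 fell, the scavenger receptor Stab1 at -0.53 ± 0.13 (adjusted p = 0.0365). Of 5 erythroid precursor markers 1 rose and 4 fell, with the strongest tests for Ahsp, which binds free alpha globin and was well above background on 1 of 3 sEV arrays, at -3.59 ± 0.34 and Slc4a1 at -1.79 ± 0.32 (adjusted p = 0.00280 and 0.0175). Hemgn, the 1 that rose, was at 1.05 and made up 97.9% to 99.7% of their summed level. That sum was 405 to 452 in sEV livers and 162 to 275 in Control livers. Without Hemgn it was 1.41 to 1.59 in sEV livers and 3.45 to 4.18 in Control livers. Of 5 megakaryocyte markers 1 rose, the integrin subunit Itgb3 at 0.68 ± 0.10 (adjusted p = 0.0102), and of 5 hepatocyte markers 1 rose, the urea cycle enzyme Cps1 at 0.85 ± 0.09 (adjusted p = 0.00417). With slide row as a block, 0 Kupffer cell, 1 monocyte, 0 sinusoidal endothelial, 1 erythroid precursor, 0 megakaryocyte and 1 hepatocyte markers were called.

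A Timp4 probe read -1.60 in sEV 3 and was well above background on that array alone. It read -6.17 and -5.84 in sEV 1 and sEV 2, and -6.33, -5.92 and -6.41 in Control livers 1 to 3. The other 2 Timp4 probes were not well above background on any array, sEV 3 included.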
